A study of Homo sapiens with 6 samples.

Results

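Peak lists for 5-hydroxymethylcytosine (5hmC) were compared between A2058 cells kept in high glucose and the same cells kept in normal glucose. All 5hmC peak regions on chromosomes 1 to 22 and X were taken, 191314 from high glucose and 209999 from normal glucose, which makes 401313 of the 593594 rows in the 4 deposited lists of the series. A2058 is an established human melanoma cell line. Both groups overexpressed wild-type TET2 and were grown for 7 days at their glucose level, with splitting every few days. The glucose concentrations, and cells without the added TET2, are not analysed here. Each group is 1 hMeDIP-seq library, in which an antibody against 5hmC pulls down DNA fragments that carry it. There is therefore no replicate check, no p-value is given between the groups, and all intervals cover counting error only.

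TET enzymes oxidise 5-methylcytosine (5mC) to 5hmC, which can be lost on replication or oxidised further and replaced by cytosine. 5hmC is known to be low in melanoma compared with melanocytes and nevi. TET2 is also a target of AMPK, a kinase that senses low cellular energy, and phosphorylation by AMPK is known to stabilise TET2. hMeDIP-seq reads the mark at the resolution of a DNA fragment and counts fragments relative to a background, so it gives local enrichment and no absolute amount of 5hmC.

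The lists differ in their narrowest width and in their smallest expected number of fragments, which bear on the measures below. Both were read or recovered from the lists, and the settings behind them are not known here. The narrowest region was 292 bp in high and 259 bp in normal glucose, and this width was held by 4.91% and 5.17% of the regions. The fold and p-value of each region allowed the number of fragments at its summit and the expected number there to be recovered. The smallest expected number was 3.03 in high and 2.64 in normal glucose, 1.15 times apart, and the median region had 23 and 20 fragments at its summit. In high glucose 17.0% of regions had the smallest expected number, and in normal glucose 16.8%. Regions are given on hg19 by position alone, since no gene annotation on that build was used here.

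Most 5hmC regions lay in the same places at both glucose levels. Of the high-glucose regions 46031 had no normal-glucose region overlapping them by at least 1 bp (24.1%), and of the normal-glucose regions 65554 had no high-glucose region (31.2%). Most overlaps were simple. One-to-one pairs, in which each region met exactly 1 region of the other list, numbered 134949, or 70.5% of the high-glucose and 64.3% of the normal-glucose list. In 3253 places 1 normal-glucose region met several high-glucose regions (6809 of them), and in 2679 places 1 high-glucose region met several normal-glucose regions (5445). A further 385 places joined several regions of each list. Counted by length the lists shared less: 79.2 Mb were in both, which was 68.9% of the high-glucose and 63.5% of the normal-glucose cover and 49.4% of the 160.5 Mb in either list.

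Sharing depended on strength. Each list was divided by -log10 p into 10 groups of equal size. In the weakest group of high glucose, with a median -log10 p of 4.24, 54.2% of regions were shared (Wilson 95% interval 53.5 to 54.9), and in the weakest group of normal glucose, with a median of 3.93, only 38.0% were (37.4 to 38.7). In the strongest groups the shares were 99.8% and 99.5%. Within bands of equal -log10 p the order of the lists crossed. Equal -log10 p is not equal enrichment here, since summit and expected numbers differ between the lists, and the part of this in the crossing was not tested. Among regions with a -log10 p from 5 to 7, 58.8% of 30939 high-glucose and 49.4% of 47091 normal-glucose regions had a partner. From 10 to 15 the shares were 81.8% of 43856 and 84.7% of 43866, and from 15 to 20 they were 94.1% of 20895 and 96.2% of 19247. Above 30, 9 of 12233 high-glucose regions and 2 of 7351 normal-glucose regions had none. Width gave a similar gradient, from 43.8% to 98.8% shared in high glucose and from 38.0% to 95.2% in normal glucose.

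**Figure D1:**
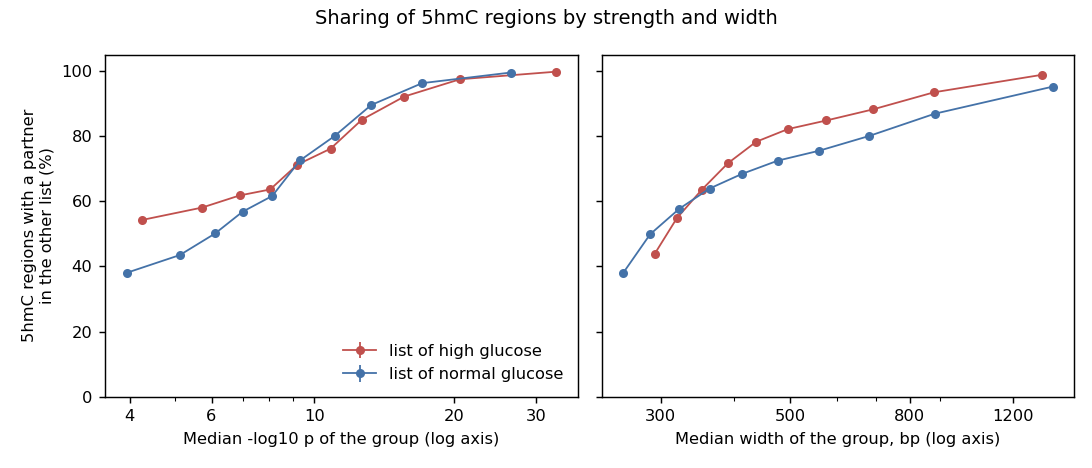
Percent of 5hmC regions that overlap a region of the other list, for 10 equal groups of each list by -log10 p (left) and by width in bp (right), with Wilson 95% intervals that are mostly smaller than the points. The weakest groups stand at 54.2% in high and 38.0% in normal glucose, and both lists come close to 100% in the strongest group.

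Few regions without a partner lay just beside a region of the other list. Of those in high glucose 2.44% and of those in normal glucose 2.51% lay within 300 bp of a region of the other list, and 20.1% and 21.7% lay within 1000 bp. The lists themselves partly limit short distances, since no gap within a list was below 301 bp, and no expected share was computed. Distance also does not show whether a weaker peak of the other list was left unlisted at the same place. The median distance was 3521 bp in high and 2943 bp in normal glucose. Within their own list, high-glucose regions without a partner stood apart, with a median of 3774 bp to the nearest region against 2451 bp for shared regions. In normal glucose the 2 kinds were closer, at 2376 bp and 2160 bp. Their summits held a median of 18 fragments in high glucose, where shared regions held 25, and 15 in normal glucose, where shared regions held 22.

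The summits of most paired regions lay close together. Over the 134949 one-to-one pairs the median signed shift, high minus normal, was 0 bp, with quartiles of -50 and 50 bp. The median absolute shift was 50 bp, and 73.0% of pairs lay within 100 bp of each other. The shift shrank with enrichment, from a median of 90 bp in the lowest of 10 groups by mean fold (95% interval of the median 88 to 93) to 38 bp in the highest (37 to 39). It grew with width, from 39 bp in the narrowest to 82 bp in the widest group (79 to 84). Shifts over 300 bp were found in 11111 pairs (8.23%), and they made up 25.5% of the widest group. The width gradient is partly set by the pairing, since regions that overlap can be no farther apart than their widths allow. In 577 pairs the summits were over 1000 bp apart.

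The pairs with the largest shifts were long regions. Among pairs with a -log10 p of at least 10 in both lists, the largest shift was in a region of chromosome 21 from 10773646 to 10829517 in high glucose and from 10773678 to 10829529 in normal glucose. Its edges differed by 32 and 12 bp, while its summits lay 28913 bp apart, at 10809214 and 10780301. The summits held 136 fragments in high glucose, where 21.7 were expected, and 120 in normal glucose, where 8.03 were expected. The next region on that chromosome, from 10830146 to 10860759 in high glucose, followed with a shift of 19603 bp. The remaining 3 lay on the X chromosome at 43573014 to 43580729, on chromosome 19 at 20057278 to 20061953 and on chromosome 9 at 140346203 to 140349884, all by their high-glucose edges, with shifts of 4083, 3569 and 3222 bp.

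**Figure D2:**
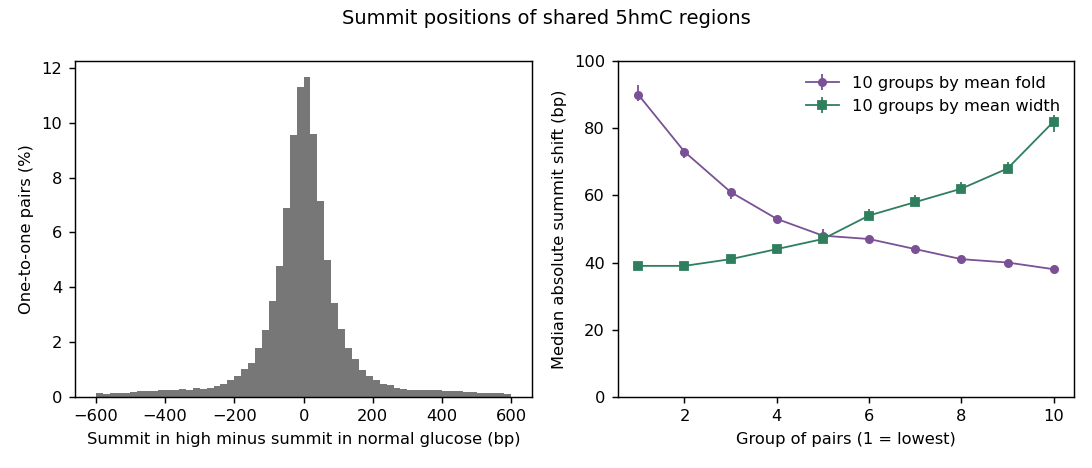
Left, distribution of the summit in high minus the summit in normal glucose, in bp, as percent of the one-to-one pairs per 20 bp bin; right, median absolute shift in 10 equal groups of pairs by mean fold or by mean width, with 95% intervals of the median. The distribution is centred on 0, and the shift goes from 90 bp to 38 bp with rising fold and from 39 bp to 82 bp with rising width.

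Paired regions were slightly wider in high glucose, most of all where regions were narrow. The median width of the paired regions was 508 bp in high and 498 bp in normal glucose. The median log2 width ratio, high over normal, was 0.062 (95% interval 0.060 to 0.065), and 57.0% of pairs were wider in high glucose. In the narrowest of 10 groups by mean width the median was 0.17, the same as the log2 ratio of the narrowest widths of the lists, 0.17. It declined from group to group to -0.015 (-0.019 to -0.0096) in the widest. When only the width beyond the narrowest region of each list was compared, an alternative chosen once the data had been seen, the ratio changed sign to -0.060. The whole lists showed the same crossing. The width that 10% of regions stayed under was 306 bp in high and 273 bp in normal glucose, and that which 99% stayed under was 2191 and 2459 bp. Regions of at least 3000 bp numbered 599 in high and 1084 in normal glucose, and those of at least 5000 bp 92 and 207. The longest were more alike in number, with 16 and 22 of at least 10000 bp and 9 and 9 of at least 20000 bp.

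Wide normal-glucose regions were often covered piecewise in high glucose. Of the 1084 normal-glucose regions of at least 3000 bp, 684 (63.1%) met several high-glucose regions, 398 met exactly 1 and 2 met none. High-glucose regions covered a median of 79.6% of their length. In the other direction 231 of 599 wide high-glucose regions (38.6%) met several normal-glucose regions, and the median cover was 95.4%. A normal-glucose region of fold 8.08 on chromosome 19, at 18531543 to 18544410, met the most partners, 6 high-glucose regions of 448 to 1975 bp with folds from 2.00 to 6.83. Next was chromosome 16 from 87861638 to 87881193, 19556 bp wide with a fold of 12.8, over 5 high-glucose regions of 2392 to 5667 bp. The remaining 3 lay on chromosome 20, at 25252686 to 25265311 and at 56247240 to 56258486, and on chromosome 17 at 75365091 to 75375890. A 5mC region was listed at both glucose levels in each of the 5, as it was in 906 of the 1084 wide normal-glucose regions (83.6%). Of all 209999 normal-glucose regions, 32265 had 5mC at both levels. Wide high-glucose regions were similar, with 460 of 599 (76.8%). A longer region meets a 5mC region more easily, and the part of length in these shares was not tested. The most divided high-glucose region was on chromosome 20 from 56262040 to 56270718 and met 4 normal-glucose regions, as did regions on chromosome X from 36771992, chromosome 17 from 27429582, chromosome 1 from 12656947 and chromosome 4 from 7772726. A 5mC region was listed at both levels in those on chromosomes 20, 17 and 4. In those on chromosomes X and 1 neither 5mC list held a region.

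Fold enrichment over the expected fragments, as the authors' lists give it, was almost the same in paired regions. Its median was 4.83 in high and 4.74 in normal glucose, and the median log2 fold ratio was 0.021 (95% interval 0.019 to 0.024). The ratio depended on enrichment. It was -0.026 (-0.036 to -0.013) in the second lowest of 10 groups by mean fold and 0.10 (0.094 to 0.11) in the highest. A fold at least 1.5 times higher in high glucose was listed for 17191 pairs (12.7%), and one at least 1.5 times higher in normal glucose for 14476 (10.7%). In the group of highest fold these shares were 13.2% and 5.41%.

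Most of the large fold differences did not reach 1.5 times in the fragments found at the summits, though few were reversed there. The log2 ratio of expected fragments had an SD over pairs of 0.39 and that of the fragments at the summits an SD of 0.34, while the fold ratio had 0.497. Both numbers were raised by 1 for these ratios, as they are in the fold. Counting error alone, from the 2 summit counts of each pair without the added 1, comes to a root mean square of 0.43 in log2 units. The spread of the summit counts was thus no larger than counting error, in pairs that had to be listed in both libraries. When summit counts were divided by the smallest expected number of their list in place of the local one, 5773 pairs were at least 1.5 times higher in high glucose (4.28%) and 8010 in normal glucose (5.94%). Of the 17191 pairs called on fold in high glucose, 3632 (21.1%) were also called on counts, and of the 14476 in normal glucose 4316 (29.8%). On counts, 25 and 9 of these pairs were called in the opposite direction. The pairs called higher in high glucose had a median of 31 and 21 fragments in high and normal glucose, where 3.72 and 5.63 were expected. Those called higher in normal glucose had 22 and 25 fragments, where 5.83 and 3.16 were expected. Since the fold is taken over the expected number, pairs chosen by fold differ in that number by the choice itself, and these medians only describe them. On the scaled counts the median log2 ratio over all pairs was -0.0084 (-0.0084 to -0.0018). In the 9704 pairs at the smallest expected number of both lists it was -0.0084 (-0.017 to 0.0054), and the median log2 fold ratio was 0.032. There both measures use the same expected number, but the fold adds 1 to each number and the scaled count does not. The direction of the median thus depended on the measure, and a log2 fold ratio of 0 is not a neutral line. Across pairs, which share both libraries, log2 summit counts correlated between the lists at a Pearson r of 0.799, and log2 expected numbers at 0.434.

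In most of the pairs with the largest fold ratios the scaled summit counts also differed by at least 1.5 times, which the ranking partly sets. The summit count is part of the fold, so the counts of these pairs only describe them. The pairs were ranked among the 95468 with a -log10 p of at least 10 in at least 1 list. The largest ratio towards high glucose was on chromosome 15 at 74587116 to 74587987, where the fold was 9.88 in high and 2.21 in normal glucose. Its summits held 49 and 22 fragments where 4.06 and 9.39 were expected, and the scaled count ratio was 1.94 (exact 95% interval 1.15 to 3.37). On chromosome 10 from 122997549 to 122998195 the folds were 13.0 and 3.05, with 57 and 25 fragments, and the summits lay 1 bp apart. The pair on chromosome 1 from 112945288 to 112945789 had folds of 8.68 and 2.21, and its scaled count ratio of 1.34 had an interval that included 1 (0.764 to 2.41). The scaled count ratio was at least 1.5 in 6 of the 10 pairs and ranged from 1.24 to 1.98. No 5mC region was in either list in 9 of the 10, beside 78.4% of all pairs of this strength. The intervals do not allow for the choice of the most extreme pairs.

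Towards normal glucose the largest ratio was on chromosome 2. There, a high-glucose region from 99126573 to 99126947 had a fold of 2.20 and a normal-glucose region from 99126056 to 99126879 a fold of 11.0, with 14 and 39 fragments. Its scaled count ratio, high over normal, was 0.312 (0.157 to 0.588), and only the normal-glucose 5mC list held a region there. On chromosome 9 from 33466031 to 33466563 the folds were 2.68 in high and 9.86 in normal glucose, with 16 and 41 fragments, and 5mC was listed at both levels. On chromosome 19 a region of 531 bp in high glucose, from 35550936 to 35551466, lay within one of 2565 bp in normal glucose, with folds of 2.47 and 9.53. The scaled count was at least 1.5 times higher in normal glucose in 9 of these 10 pairs, with ratios from 0.312 to 0.725. Some of the intervals included 1, as on chromosome 4 from 85200284 to 85200575 (0.366 to 1.10). Expected numbers in the 10 pairs were 5.35 to 13.3 in high and 2.64 to 3.92 in normal glucose. Here too the summit counts are part of the fold that ranked the pairs. A 5mC region was listed at both levels in 4 of them and at neither in 5, beside 15.8% and 78.4% of all pairs of this strength.

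The pairs of highest mean fold differed little in their summit counts. The first was on chromosome 15 from 30618417 to 30618901 in high and from 30618412 to 30618871 in normal glucose. Its folds were 22.2 and 25.3, from 95 and 91 fragments, its summits lay 5 bp apart, and of the 5mC lists only that of normal glucose held a region there. Next were the pair on chromosome 10 at 134429267 to 134430570 with folds of 24.7 and 18.4, and that on chromosome 7 at 2098623 to 2099534 with 23.1 and 17.1, each with 5mC at both levels. Chromosome 12 from 65527394 to 65528203 (18.1 and 20.2) and chromosome 9 from 136968343 to 136969880 (23.96 and 15.1) had no 5mC region. The scaled count ratios of the 5 pairs ranged from 0.908 to 1.30, and each interval included 1.

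Pairs that also carried 5mC leaned towards normal glucose, except at the highest folds. In 21329 pairs a 5mC region was listed at both glucose levels, and in 105714 at neither. The median log2 fold ratio was -0.057 (-0.066 to -0.049) in the first and 0.037 (0.034 to 0.042) in the second. A fold at least 1.5 times higher in normal glucose was listed for 14.4% of the pairs with 5mC and 9.80% of those without, beside 10.7% over all pairs. In high glucose these shares were 10.6% and 13.2%, beside 12.7%. The median was lower with 5mC than without in 10 of 10 groups by mean fold. In the highest group, however, it lay above 0 in both kinds of pair, at 0.073 (0.051 to 0.091) with and 0.11 (0.0996 to 0.12) without 5mC, and 11.7% of the pairs with 5mC were at least 1.5 times higher in high and 6.91% in normal glucose. In the next group the interval with 5mC included 0 (-0.039 to 0.012). The median log2 ratio of expected fragments, each raised by 1 as in the fold, was 0.15 in both kinds of pair. That is the value held by pairs at the smallest expected number of both lists, so this median cannot show whether expected numbers differed with 5mC. On scaled counts the medians were -0.072 (-0.079 to -0.064) with 5mC and 0.010 (0.0054 to 0.010) without. Widths went the same way. Regions with 5mC had a median width of 674 bp in high and 753 bp in normal glucose, a log2 ratio of -0.061 (-0.067 to -0.054), and those without 483 and 460 bp, a ratio of 0.088 (0.086 to 0.091). The part of the greater width in this difference was not tested.

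Regions with 5mC lacked a partner less often in both lists. In high glucose 11.0% of 27614 regions with 5mC at both levels had no normal-glucose partner (10.6 to 11.4), against 26.9% of 153263 with 5mC at neither (26.7 to 27.1) and 24.1% of all. In normal glucose the shares were 24.4% of 32265 and 32.6% of 165639, against 31.2% of all. For regions with a -log10 p from 5 to 10 they were 18.4% with and 39.9% without 5mC in high glucose, and 37.0% and 43.1% in normal glucose. For the weakest regions, with a -log10 p from 3 to 5, they were 27.9% and 50.01% in high glucose. In normal glucose the intervals overlapped there, at 60.5% (58.8 to 62.0) with and 61.7% (61.0 to 62.4) without 5mC. From 10 to 20 the shares were 4.40% and 16.2% in high and 8.06% and 12.6% in normal glucose. Regions with a -log10 p from 5 to 10 were wider with 5mC, with medians of 517 against 366 bp in high and 534 against 353 bp in normal glucose.

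**Figure D3:**
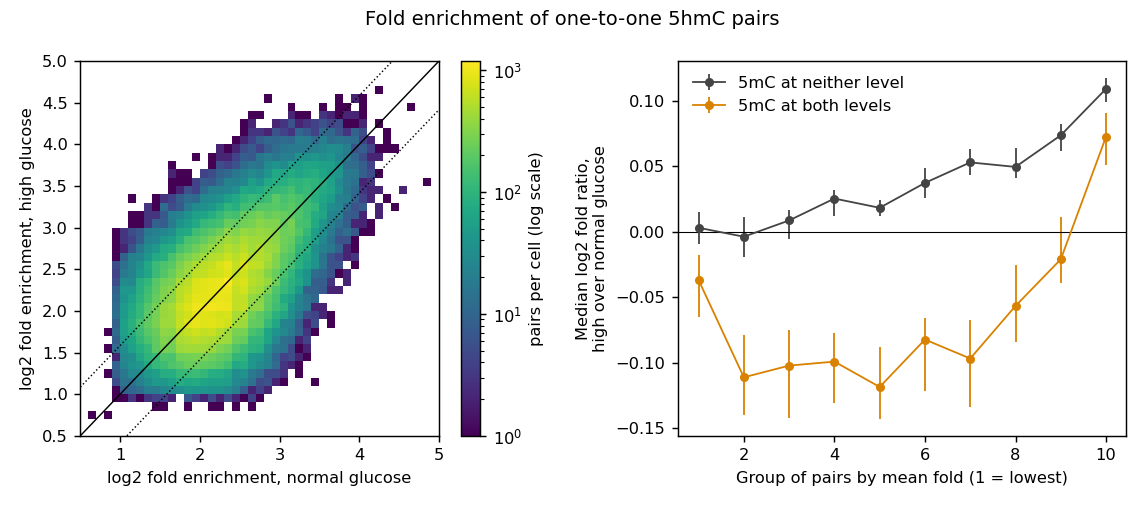
Left, log2 fold enrichment of the one-to-one pairs in normal (x axis) and high glucose (y axis), with the number of pairs per cell in colour, equality as a solid line and a ratio of 1.5 as dotted lines; right, median log2 fold ratio in 10 equal groups of pairs by mean fold, for pairs with a 5mC region at both or at neither glucose level, with 95% intervals of the median. The pairs with 5mC lie below those without in 10 of 10 groups, and in the highest group both lie above 0.

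Neighbouring 5hmC regions lay farther apart in high glucose. The median gap between the end of a region and the start of the next was 5779 bp in high glucose (95% interval 5729 to 5830). In normal glucose it was 4719 bp (4676 to 4761), and the ratio was 1.22. The mean gap differed less, 14793 bp against 13429 bp, a ratio of 1.10. No gap was below 301 bp in either list. The difference lay in the short gaps. Those over 300 and up to 500 bp numbered 9896 in high glucose against 13624, a ratio of 0.726, and the ratio in the next bands was 0.772 up to 1000 bp, 0.800 up to 2000 bp and 0.886 up to 5000 bp. Gaps over 20000 and up to 50000 bp were slightly more numerous in high glucose, 26770 against 25695. High glucose had 19358 fewer gaps of up to 5000 bp, where its list was 18685 regions shorter.

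The ratio of median gaps fell as weaker regions were left out, while the ratio of region numbers rose. With equal numbers of the strongest regions the ratio of median gaps was 1.09. With a -log10 p of at least 10 in both lists it was 1.001, from gaps of 11932 and 11915 bp, where high glucose had 1.12 times as many regions. At a -log10 p of at least 20 it was 0.846, where high glucose had 1.39 times as many regions as normal glucose. The part of region number in this fall was not tested. The ratio was 1.25 where both flanking regions carried 5mC (1908 and 1528 bp) and 1.16 where neither did (7614 and 6561 bp).

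More of the stretches between paired regions held extra regions in normal glucose alone than in high glucose alone. Of the 134926 stretches between consecutive one-to-one pairs, 54.5% held no other region in either list. Their median length was 3858 bp in high and 3857 bp in normal glucose, with a median absolute difference of 106 bp, which overlap of the pairs keeps small. In 16395 stretches other regions were listed in high glucose only (20644 regions) and in 24186 in normal glucose only (34073 regions). Those stretches had median lengths in high glucose of 16507 bp and 12370 bp. In 20786 stretches, with a median of 25431 bp, both lists held other regions.

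**Figure D4:**
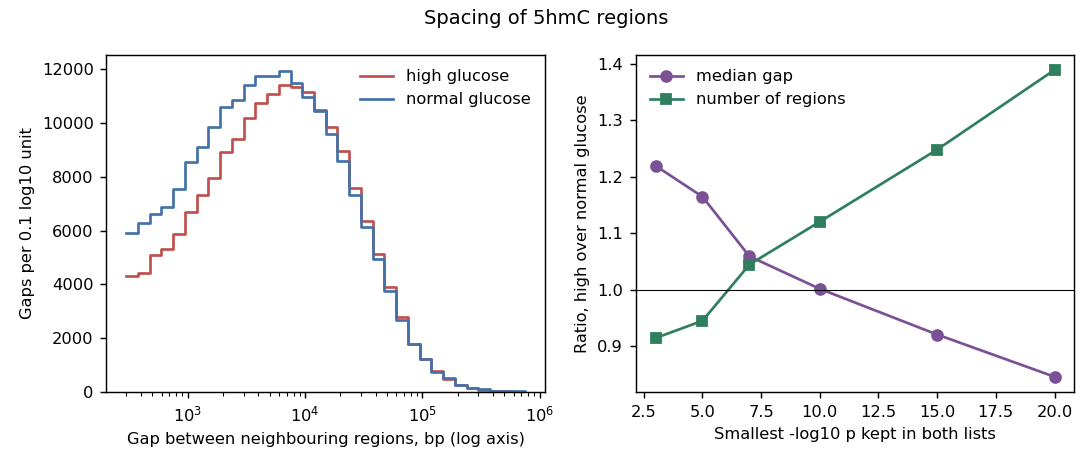
Left, number of gaps between neighbouring 5hmC regions per 0.1 log10 unit of gap length in bp (log axis) in the list of each glucose level; right, ratio of the median gap and of the number of regions, high over normal glucose, when only regions above a -log10 p are kept in both lists. Normal glucose has more gaps of up to 5000 bp, and the gap ratio goes from 1.22 at 3 to 0.846 at 20.

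Chromosomes differed little in paired fold. The median log2 fold ratio was above 0 on 22 of 23 chromosomes, and its interval excluded 0 on 14 of them. All chromosomes come from the same 2 libraries, so these are not repeated observations. Over all pairs the median was -0.0084 on scaled counts, which are not given by chromosome. It was highest on the X chromosome, 0.079 (0.058 to 0.096), followed by chromosome 18, 0.053 (0.025 to 0.079), whose intervals overlapped. Chromosome 17 had the lowest value, -0.013 (-0.027 to 0.0031), and the interval included 0. The share of pairs with 5mC at both levels was 7.26% on the X chromosome and 25.3% on chromosome 17, but chromosomes 22, 16 and 19 had larger shares (25.5%, 26.8% and 36.2%) with medians of 0.021, 0.015 and 0.0070. Among pairs without 5mC the median was above 0 on 23 of 23 chromosomes. The gap ratio was above 1 on 23 of 23 and ranged from 1.12 on the X chromosome to 1.35 on chromosome 21. The median absolute summit shift was lowest on chromosome 20, 46 bp, and highest on chromosome 21, 63 bp. Chromosome 19 had the fewest regions without a partner, 15.9% of its high-glucose and 24.2% of its normal-glucose regions, and the shortest median gaps, 2318 and 1944 bp.

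**Figure D5:**
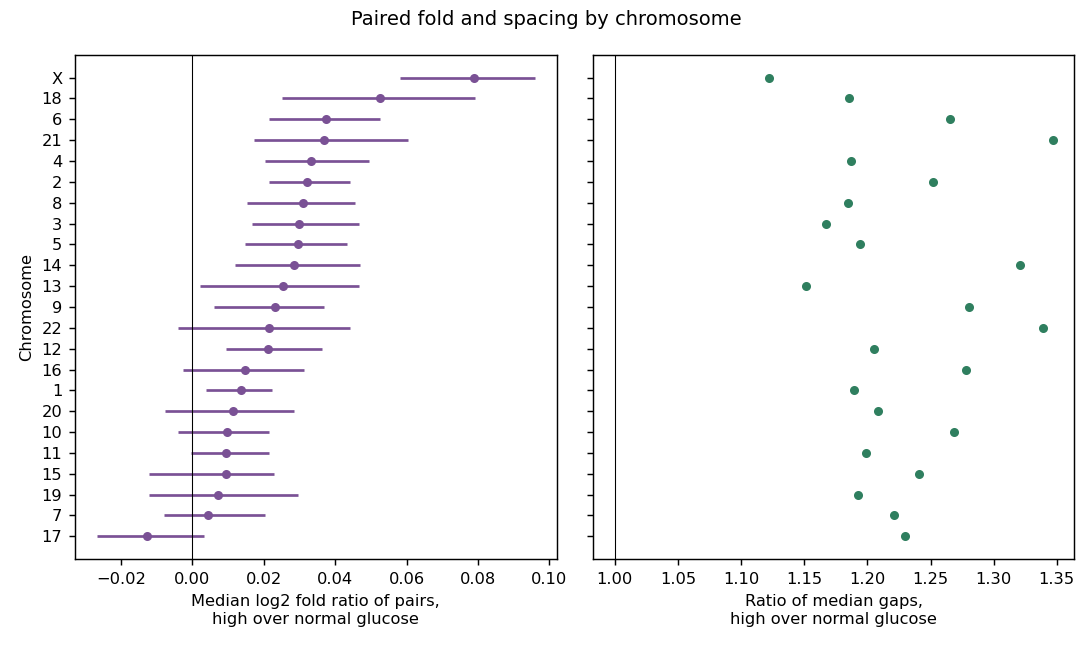
Median log2 fold ratio of the one-to-one pairs, high over normal glucose, with its 95% interval (left) and ratio of median gaps (right) for chromosomes 1 to 22 and X, ordered by the fold ratio. Fold ratios run from -0.013 on chromosome 17 to 0.079 on the X chromosome, and the gap ratios from 1.12 to 1.35.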

How the data were processed

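hMeDIP-seq lists from 2 libraries of A2058 cells were compared, 1 per glucose level, and the 5mC lists served only to mark regions. Titles gave the groups. The names of single peaks read Ctrl in the high-glucose and Low in the normal-glucose list, and the titles were followed. Tools in the submitters' processing notes are bedtools 2.17.0, SAMtools 0.1.18, Bowtie 1.0.0 and CASAVA 1.8.2, and their build is hg19. Peak caller and control: not given in the sources used here. For each region the authors deposited a summit position, a fold enrichment (a ratio), the p-value and the q-value as -log10, and a display score, which was not used. Per the labels, each list is of 1 sample.

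Regions on chromosomes 1 to 22 and X were kept and overlaps counted in NumPy 2.4.6 and pandas 2.3.3 under Python 3.11.15, with intervals from SciPy 1.17.1, and bedtools 2.31.1 gave the same shared numbers. Coordinates are 1-based. Summit fragments t and expected fragments L were recovered from fold = (t + 1)/(L + 1) and the Poisson p-value for 100% of the regions, with a misfit under 1% of the step between neighbouring counts. On 5000 simulated regions 100% of counts were recovered. Depth is known only through these counts. Named regions are the most extreme by fixed ranks: 10 pairs each way by fold ratio, and 5 each by mean fold, summit shift, number of partners and run length. Gene-level 5hmC cover was not computed. The members, ranks and gene lists were chosen with earlier results of these data known.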

Additional observations from a re-analysis of the deposited data

Results flagged for a closer look

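The 5hmC lists also held peaks outside chromosomes 1 to 22 and X, on the Y chromosome and mitochondrial DNA, which no comparison above used: 80 in high glucose and 82 in normal glucose. They are given here only because they are data outside the main measurement.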

How the results depend on the processing

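No paired analysis was possible because each group is 1 library. The main values were 0.911 for the ratio of region numbers, 75.9% and 68.8% shared in high and normal glucose, 1.22 for the gap ratio, 50 bp for the summit shift, 0.062 and 0.021 for the log2 width and fold ratios and 23.5% of pairs past a fold ratio of 1.5. Intervals around values this numerous are narrow, so most alternatives fell outside them. With a -log10 p of at least 10 in both lists the number ratio turned to 1.12, and the other values, in the same order, were 64.7%, 72.2%, 1.001, 41 bp, 0.056, 0.015 and 16.5%. With a -log10 q of at least 2 they were 0.925, 75.2%, 69.1%, 49 bp and, for pairs past 1.5, 22.4%. Merging regions within 500 bp gave a number ratio of 0.924, 69.6% shared in normal glucose and a gap ratio of 1.19. Equal numbers of top regions gave 72.5%, 71.8% and a gap ratio of 1.09. Requiring 50% of both regions to overlap gave 62.95% and 57.4% shared, 48 bp, 0.065, 0.027 and 23.2%. Pairing by largest overlap gave 53 bp, 0.048, 0.0087 and 24.6%. Between summits the gap ratio was 1.197. The log2 width ratio was 0.036 for regions wider than 2 times the narrowest and turned to -0.060 for width beyond the narrowest. The log2 fold ratio turned to -0.0084 on summit counts over the smallest expected number, with 10.2% of pairs past 1.5. Pairs at the smallest expected number of both lists, chosen like the width beyond the narrowest once the data had been seen, gave 0.075, 0.032 and 10.6%. Autosomes alone changed no value beyond its interval. The causes were not tested. Counts of 20 to 25 fragments at the median summit limit what single pairs can show.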

Other observations

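Runs of 5hmC regions with neighbouring gaps of at most 500 bp held 18839 regions in high glucose (9.85%) and 25640 in normal glucose (12.2%), in 8943 and 12016 runs. Runs of at least 4 regions numbered 108 and 205. The longest in high glucose was on chromosome 4 from 49637236 to 49659889, with 8 regions that covered 19958 of 22654 bp, where normal glucose had 7 regions over 20023 bp. The longest in normal glucose was on chromosome 20 from 56231910 to 56268147, with 8 regions that covered 33443 of 36238 bp. High glucose had 13 regions over 29405 bp there, and the run takes in a region named above for its 5 partners. Also with 8 regions was a run on chromosome 1 from 25236092 to 25244716, where normal-glucose regions covered 6057 bp and high-glucose regions 4925 bp. On chromosome 9 from 137247786 to 137262786, 7 normal-glucose regions covered 12876 bp and 6 high-glucose regions 8285 bp. In each of the 5 longest normal-glucose runs the high-glucose list covered less, and in the 5 longest high-glucose runs the normal-glucose list covered less in 2 and more in 3. These runs were picked in the list that held them.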
